A study of Schizosaccharomyces pombe with 6 samples.

Results

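The 6 genes SPBC359.01, *alr2* (SPBC359.02), *aat1* (SPBC359.03c), *pfl7* (SPBC359.04c), *abc3* (SPBC359.05), and *mug14* (SPBC359.06) are consecutive protein-coding genes of chromosome II in the fission yeast annotation. They were taken by systematic ID from the 6988 features of the count table, and all 6 had enough counts to be tested. The group was selected on its transcript levels in these same libraries, wild-type against mutant. The differences between strains given for the 6 genes are therefore a description, and no p-value is given for them.

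Poly(A)+ RNA was sequenced from 3 wild-type cultures and 3 cultures of a mutant with 4 altered genes, all labelled as haploid *h-* cells of *Schizosaccharomyces pombe* in log phase vegetative growth at 30°C in ePMGT, a synthetic medium with glutamate and thiamine. The mutant, which carries *asp1-H397A::natMX*, *aps1*∆*::kanMX*, *siw14*∆*::hygMX*, and *spx1*∆*::ura4MX*, makes an Asp1 protein without pyrophosphatase activity and lacks the inositol pyrophosphatases Aps1 and Siw14 and the inositol pyrophosphate sensor Spx1. The study's strain list gives *leu1-32*, *ura4-D18*, *his3-D1*, and an *ade6* allele as shared by its strains, although neither of the strain numbers in the labels is in that list. Only 1 strain of each genotype was used, so that the 4 alleles, the *ura4* marker, and the particular strain cannot be told apart as the source of any difference.

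Deposited counts summed to 16593476 to 22690741 per library. *aps1* had 3083 to 3657 counts in the wild-type and 307 to 330 in the mutant, *siw14* had 1925 to 2666 and 70 to 107, and *spx1* had 4524 to 6452 and 1915 to 2369. On normalized counts, 8.68% of the wild-type level was left for *aps1*, 3.61% for *siw14*, and 33.1% for *spx1*, whose label gives a deletion, and the counts do not show which part of each gene the reads came from. *asp1*, with a point mutation that gene counts cannot show, kept 70.8% of its wild-type level. The marker *ura4* had 0 counts in every wild-type library, where 0 allows up to 3 counts per library, and 8309 to 9631 per mutant library. The mating type of the mutant is in doubt, since the labels give *h-* while the study's strain list gives the same genotype, under another number, as *h+*. *mfm2*, an M-factor pheromone gene of *h-* cells, was the most abundant of 4 M-type markers in both strains (3621 ± 729.3 normalized counts in the wild-type and 792.5 ± 95.9 in the mutant, SD, n = 3). Means in the wild-type and the mutant were 121 and 8.9 for *mfm1*, 32.3 and 12.9 for *mfm3*, and 358.5 and 89.15 for *mam2*. In the mutant *mfm1* and *mfm3* were thus below both P-type markers given next, and the mating type was not decided from these levels. The P-type markers *map2* and *map3* were at 124.7 ± 7.62 and 281.2 ± 37.4 in the wild-type and at 73.7 ± 7.32 and 277.9 ± 10.2 in the mutant. To be called, a feature needed an adjusted p no greater than 0.05 in edgeR's quasi-likelihood test, a 2-fold or larger difference, and 100 or more normalized counts on average in its higher strain. Of the 4 M-type markers 3 were called lower in the mutant, and of 4 markers of late meiosis and sporulation 1 was (*isp3*, log2 fold change −1.17), against 1.72% of all features tested.

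Alanine racemases are pyridoxal phosphate enzymes that interconvert L-alanine and D-alanine, and fission yeast has a pair of them, Alr1 and Alr2. Amino acid permeases carry amino acids across the plasma membrane, and in yeasts their genes respond to the nitrogen source. SPBC359.01 and *aat1* are annotated as such permeases, *pfl7* as a cell surface glycoprotein of the DIPSY family of flocculins, which act in cell adhesion, and *mug14* as an adducin-like protein first named in a screen of genes raised in meiosis. *abc3* encodes a vacuolar ABC transporter of the multidrug resistance-associated class, and its gene is repressed by the iron sensor Fep1 when iron is plentiful.

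The transcript of *alr2* differed most between the strains. Its normalized counts, in which each library's counts are scaled to the mean effective library size, were 13590, 11570, and 7669 in wild-type replicates 1, 2, and 3 and 600.2, 420.4, and 689.2 in mutant replicates 1, 2, and 3. Every wild-type library stood above every mutant library, and the lowest wild-type value was 11.1 times the highest mutant value. Since RNA was taken from whole cultures, fewer expressing cells and less RNA per cell cannot be told apart. The means were 10940 ± 3010 and 569.9 ± 137 (SD, n = 3 each), so that 5.21% of the wild-type level was left. From edgeR the log2 fold change was −4.26 (standard error 0.23), and *alr2* stood at rank 4 from the most negative of 5947 features tested. It was also the least even of the 6 genes within the wild-type, where its coefficient of variation was 27.5% and replicate 3 was the low library. Over the features tested, wild-type replicates 1 and 3 also differed most of all replicate pairs (chi-square per degree of freedom 65.8).

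The permease gene SPBC359.01, which precedes *alr2* on the same strand, had 4138, 5274, and 4807 normalized counts in the wild-type, whereas the mutant had 582, 621.9, and 746.1. The strains were well apart, with 13.7% of the wild-type level left in the mutant. The log2 fold change was −2.87 (standard error 0.13). The second permease gene, *aat1*, lies after *alr2* on the opposite strand and had 9114, 9920, and 9222 in the wild-type against 2916, 3338, and 4315 in the mutant. It kept 37.4% of its wild-type level (log2 fold change −1.42, standard error 0.13). Its wild-type libraries were close to each other, with a coefficient of variation of 4.65%, and its mutant libraries were less so, at 20.4%.

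For *pfl7* the wild-type libraries held 500.3, 467.5, and 555 normalized counts and the mutant libraries 162.8, 138.1, and 184.4. The strains did not overlap, and the log2 fold change was −1.65 (standard error 0.17), with 31.9% left. *mug14* was the least abundant of the 6 genes, at 107.1, 104.2, and 101.5 normalized counts in the wild-type against 22.73, 21.48, and 25.15 in the mutant. These came from 92 to 111 and 21 to 27 counts. Its log2 fold change was −2.17 (standard error 0.20).

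The ABC transporter gene *abc3* differed least. Its wild-type libraries had 3785, 3799, and 4434 normalized counts and its mutant libraries 2304, 3132, and 3692. The groups touched without overlapping, the lowest wild-type value being 1.03 times the highest mutant value, and the log2 fold change was −0.40 (standard error 0.15). Without mutant replicate 1, the lowest library, it was −0.23, and without mutant replicate 3 it was −0.56.

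**Figure D1:**
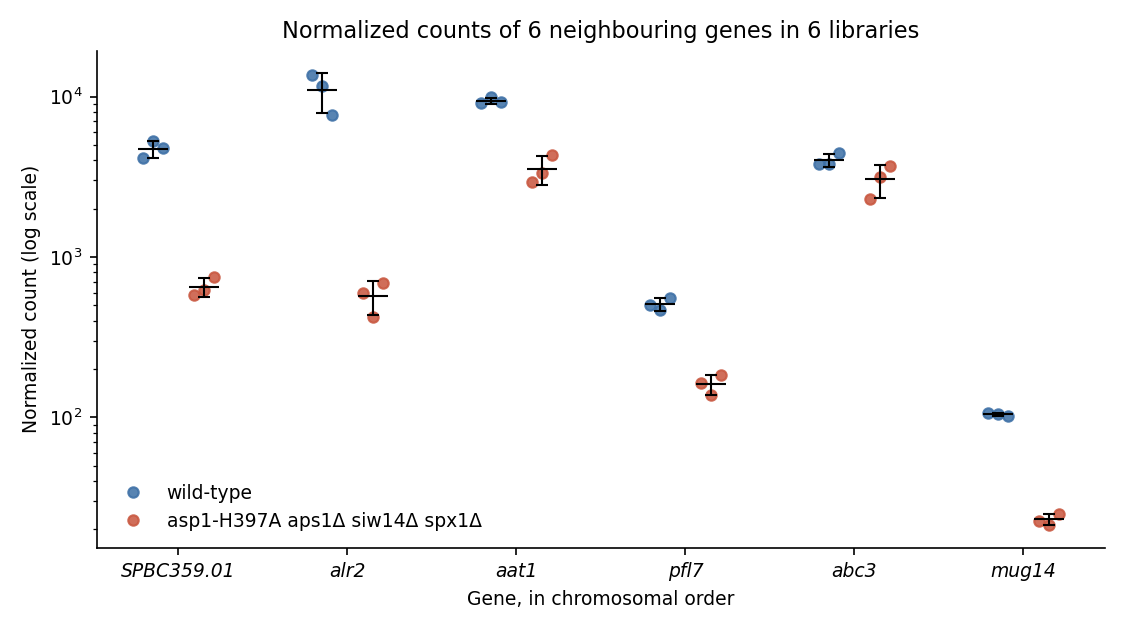
Normalized counts (log scale) of the 6 genes in chromosomal order, with 1 point per library, the mean as a bar, and error bars of 1 SD over 3 libraries. The mutant libraries sit far below the wild-type libraries for *alr2* (420.4 to 689.2 against 7669 to 13590) and next to them for *abc3* (2304 to 3692 against 3785 to 4434).

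By the definition of a call given above, 5 of the 6 genes were called lower and *abc3* was not. Over all 5947 features tested, 1.72% were called lower and 0.37% higher. In all 6 genes every wild-type library was above every mutant library, as in 17.3% of all features tested. The median log2 fold change of the 6 genes was −1.91, and that of all features tested was 0.002. Since the 6 genes were chosen on this contrast, nothing is read from these counts. The call of *mug14* rests on the scale of the minimum: its wild-type mean here is 104.3, while the authors' own wild-type average is 86.72, with which 4 of the 6 genes would be called.

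Per length, the 6 transcripts spanned a wide range, and their order changed between the strains. In wild-type cells *alr2* was at 334 ± 92 RPKM (counts per kilobase of exon, scaled to the effective library size), above 91.9% of the 5107 protein-coding genes. *aat1* was at 195 ± 9.04 RPKM, SPBC359.01 at 90.3 ± 10.9, *abc3* at 40.5 ± 3.75, *pfl7* at 17.2 ± 1.5, and *mug14* at 4.49 ± 0.121 (SD, n = 3 each). Ranges of adjacent genes in this wild-type order did not overlap. The median protein-coding gene was at 33.1 RPKM in the wild-type and 34.1 in the mutant.

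In the mutant the order of RPKM levels was *aat1* (72.8 ± 14.8), *abc3* (30.8 ± 7.06), *alr2* (17.4 ± 4.19), SPBC359.01 (12.4 ± 1.63), *pfl7* (5.49 ± 0.787), and *mug14* (0.995 ± 0.0802). The ranges of *alr2* and SPBC359.01 overlapped, although *alr2* was the higher of the pair in 3 of 3 mutant libraries. *alr2* went from above 91.9% of protein-coding genes to above 28.5%, and SPBC359.01 from above 76.5% to above 19.9%. *aat1* remained above 72.3% of them.

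**Figure D2:**
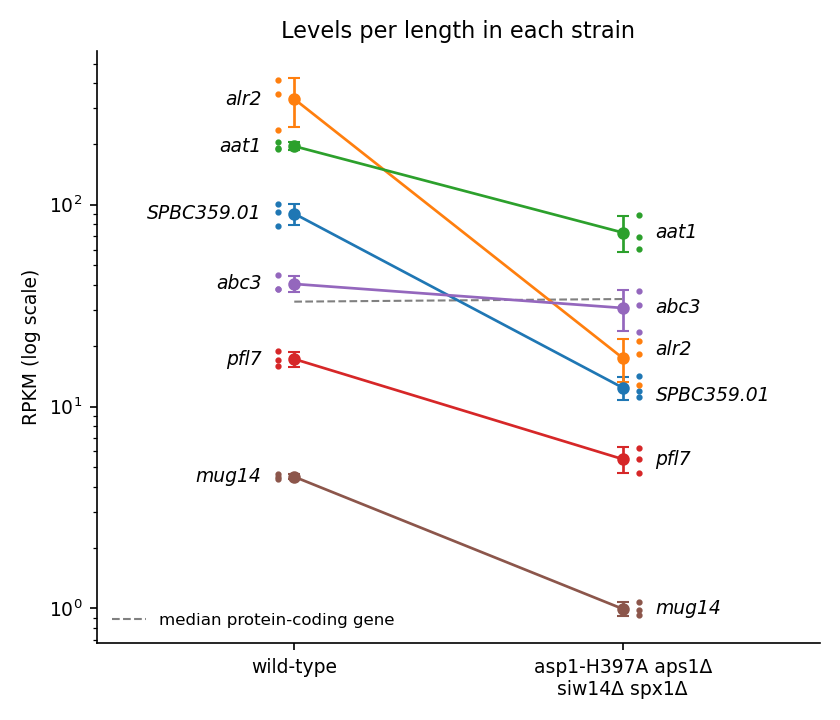
RPKM (log scale) of each gene in wild-type and mutant cells. Large points are means with 1 SD over 3 libraries, small points are libraries, and the dashed line joins the medians of all protein-coding genes (33.1 and 34.1). *alr2* drops from the top of the order to below *aat1* and *abc3*.

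Ratios within a library do not depend on its depth. The RPKM ratio of *alr2* to *aat1* was 2.21, 1.72, and 1.23 in wild-type replicates 1, 2, and 3 and 0.304, 0.186, and 0.236 in mutant replicates 1, 2, and 3. That of *aat1* to SPBC359.01, the other permease gene, was 2.39, 2.04, and 2.08 in the wild-type and 5.43, 5.82, and 6.27 in the mutant. So the size of the strain difference was unequal among these transcripts within the same libraries. Together the 6 genes took 0.122% to 0.165% of all counts in a wild-type library, against 0.0319% to 0.0463% in a mutant library. *alr2* made up 28.6% to 43.5% of these counts in the wild-type and 5.48% to 9.11% in the mutant, while the share of *abc3* went from 12.1% to 16.6% up to 35% to 40.8%.

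SPBC359.01 and *aat1* are related in sequence. Their exons aligned at 84.4% identity over 1459 bases, which is 57% of SPBC359.01 and 61.8% of *aat1* (ASM294v3). *alr2* aligned best with *alr1* (68.2% over 969 bases), *pfl7* with *pfl9* (69.6% over 464 bases), and *abc3* with *abc2* (69.2% over 2246 bases), and *mug14* had no match. No near-identical copy (95% identity over 50% of the exon length) was found for any of the 6. The sources used here do not say how reads that fit 2 places were counted, and an effect on the permease pair was not tested.

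Noncoding genes lie among these genes, and 8 of the 25 annotated there in ASM294v3 were in the count table. SPNCRNA.293, which lies between *pfl7* and *abc3*, was called lower, with 149.3, 138.9, and 147.8 normalized counts in the wild-type and 47.29, 48.07, and 27.01 in the mutant (log2 fold change −1.83, standard error 0.23, adjusted p = 0.000337 from edgeR). SPNCRNA.1309 overlaps *alr2* on the opposite strand and was at 54.7, 49.76, and 39.72 against 14.55, 19.43, and 17.7, below the minimum of 100 for a call (log2 fold change −1.48, adjusted p = 0.00354). It is far less abundant than *alr2*. SPNCRNA.1313, which overlaps *abc3* on the opposite strand, was at 51.6 ± 4.28 and 21.2 ± 2.5 (log2 fold change −1.28, adjusted p = 0.00466), and SPNCRNA.1312, also antisense to *abc3*, was at 14.9 ± 7.42 and 18.1 ± 5.78 (log2 fold change 0.24, adjusted p = 0.754). SPNCRNA.1310, between *alr2* and *aat1*, was at −1.12 (adjusted p = 0.076). The other 3, SPNCRNA.292, SPNCRNA.294, and SPNCRNA.1314, had too few counts to test. The sources used here do not say whether strand was used in counting, and reads from an overlap cannot be assigned to either gene.

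To see where the change ended along the chromosome, the 10 protein-coding genes on each side were examined, chosen by position only. The genes nearest to SPBC359.01 were almost silent. SPBPB10D8.07c had 3 to 10 counts per wild-type library and 4 to 9 per mutant library, and SPBPB10D8.06c had 4 counts in wild-type replicate 2 and 0 in the 5 other libraries. On the other side, *pho841*, an inorganic phosphate transporter gene next to *mug14*, had 2648, 2692, and 3159 normalized counts in the wild-type and 3396, 3252, and 3171 in the mutant (log2 fold change 0.21, standard error 0.10, adjusted p = 0.192 from edgeR), which did not pass the test. SPBC1683.02, an adenosine deaminase family gene that comes next, was lower without reaching 2-fold (log2 fold change −0.87, adjusted p = 0.00927).

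Of the 16 flanking genes with enough counts, 7 were called lower by edgeR and 0 higher, against 1.72% and 0.37% of all features tested. At an unadjusted p under 0.05 the count was 12 lower and 0 higher, against 14.3% and 13.1% of all features, and DESeq2 and limma-voom also called 7 lower and 0 higher. Before SPBC359.01 these were *cmt2*, a methyltransferase gene (log2 fold change −3.26, adjusted p = 6.43e-06), *aes1* (−1.13), SPBPB10D8.01, a cysteine transporter gene (−1.31), and SPBPB10D8.02c, an arylsulfatase gene (−2.64). After *mug14* they were *urh1*, encoding a uridine ribohydrolase (−2.15), the hexose transporter gene *ght4* (−2.07), and *frp1*, encoding a ferric-chelate reductase (−1.14). Not called were SPBPB21E7.09, between *aes1* and SPBPB10D8.01 (−0.71, adjusted p = 0.0205), and SPBPB10D8.04c, the most positive of the 16 (0.58, adjusted p = 0.403, from 5 to 26 counts). Between *mug14* and *ght4*, *amf1* (−0.54, adjusted p = 0.00761) and *thi7* (−0.92, adjusted p = 0.000641) were lower without reaching 2-fold. Also not called there were SPBC1683.04 (−0.11, adjusted p = 0.66) and *mal1* (−0.42, adjusted p = 0.0684), and *pcl1* at the far end was at −0.05. By edgeR's adjusted p alone 11 of the 16 were lower and 0 higher, against 7.03% and 5.33% of all features tested. The median over the 16 was −0.89. The calls of *frp1* and *aes1* were lost without mutant replicate 1 (−0.86) and without mutant replicate 3 (−0.98), while *thi7* was called without wild-type replicate 1 (−1.02) and SPBC1683.02 without wild-type replicate 3 (−1.02).

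**Figure D3:**
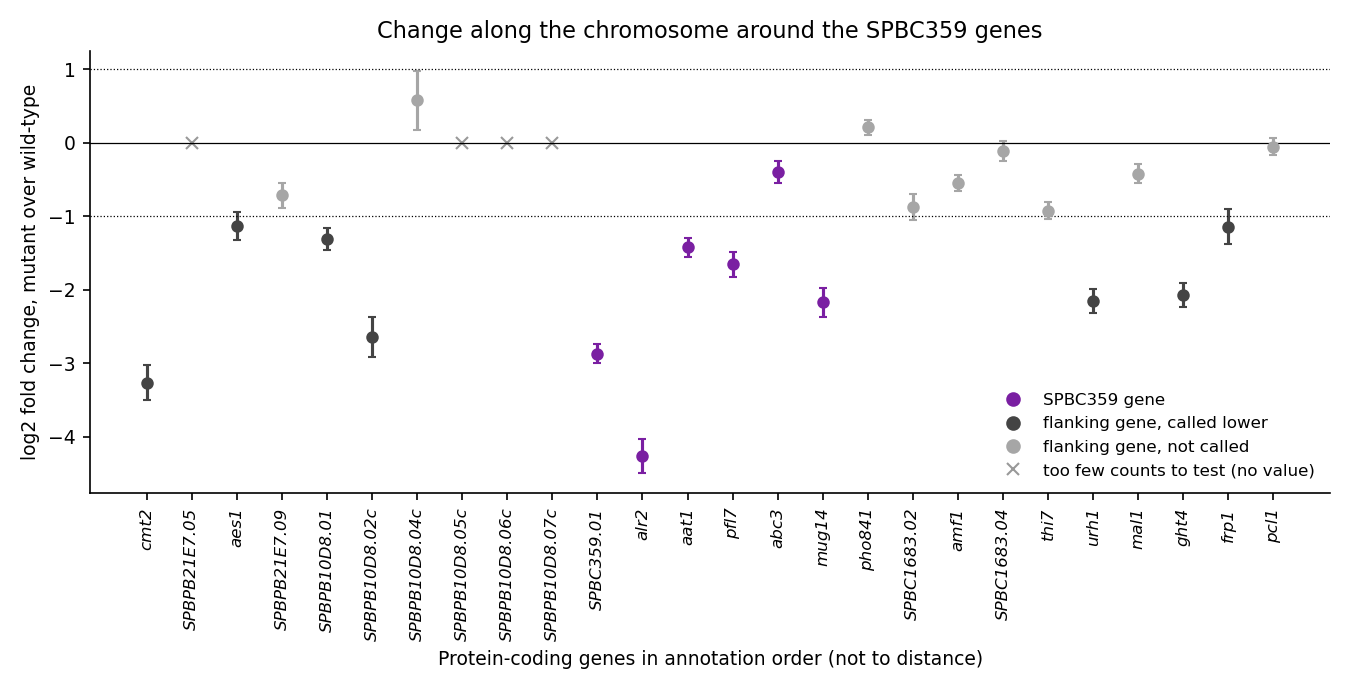
The log2 fold change, mutant over wild-type, of 26 protein-coding genes in annotation order, with bars of 1 standard error from edgeR and dotted lines at a 2-fold change. The SPBC359 genes reach −4.26 at *alr2* and come to −0.40 at *abc3*, with 4 genes of low or no counts just before them and *pho841* at 0.21 just after. Crosses on the zero line mark genes with no value.

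Of 5 other genes for enzymes that act on alanine or D-amino acids, 0 were called by edgeR, DESeq2, or limma-voom. Over all features tested by edgeR, 1.72% were called lower and 0.37% higher. At an unadjusted p under 0.05 by edgeR, 1 of the 5 was lower and 0 were higher, against 14.3% and 13.1% of all features. *alr1*, the second alanine racemase gene, had 308.8, 232.8, and 251.6 normalized counts in the wild-type and 261.9, 270, and 296.2 in the mutant (log2 fold change 0.06, standard error 0.16, adjusted p = 0.849 from edgeR), and the strains overlapped. The log2 fold change was −0.19 for *alt1*, a putative alanine aminotransferase gene (adjusted p = 0.269), 0.24 for *dao1*, a D-amino acid oxidase gene (adjusted p = 0.24), and −0.13 for *sry1*, a serine racemase gene (adjusted p = 0.585). SPAC1039.06, annotated with D-serine ammonia-lyase activity, was lower without reaching 2-fold (log2 fold change −0.88, standard error 0.11, adjusted p = 0.000338).

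Amino acid transporter genes were listed where the annotated product holds "amino acid" with "transporter" or "permease". Transporters named only for a single amino acid are outside this list. Examples are the cysteine transporter gene SPBPB10D8.01, called lower above, and *put4*, a proline transporter gene that the study lists as lower. Of the 19 other genes listed, 4 were called lower and 0 higher by edgeR, DESeq2, and limma-voom alike. Over all features tested by edgeR, 1.72% were called lower and 0.37% higher. The median log2 fold change of the 19 was −0.25. The 4 were *isp5* (−2.64, adjusted p = 2.86e-06), *nrg1* (−2.52, adjusted p = 9.28e-07), SPAC1039.01 (−1.41, adjusted p = 0.000249), and *per1* (−1.21, adjusted p = 3.1e-05). By the adjusted p alone 6 of the 19 were lower and 4 were higher, against 7.03% and 5.33% of all features tested. The lower genes that were not called were *dip5* and SPAPB24D3.02c. *dip5* was at −1.12 (adjusted p = 0.0106) but under the minimum mean count, and SPAPB24D3.02c did not reach 2-fold (−0.96, adjusted p = 0.000136). The 4 higher genes were the arginine and lysine transporter gene *cat1* (0.59), the vacuolar transporter genes *avt5* (0.56) and *fnx1* (0.32), and SPBC1652.02 (0.42). Within the group, SPBC359.01 had the most negative value (−2.87) and *aat1* the fourth, close to SPAC1039.01.

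**Figure D4:**
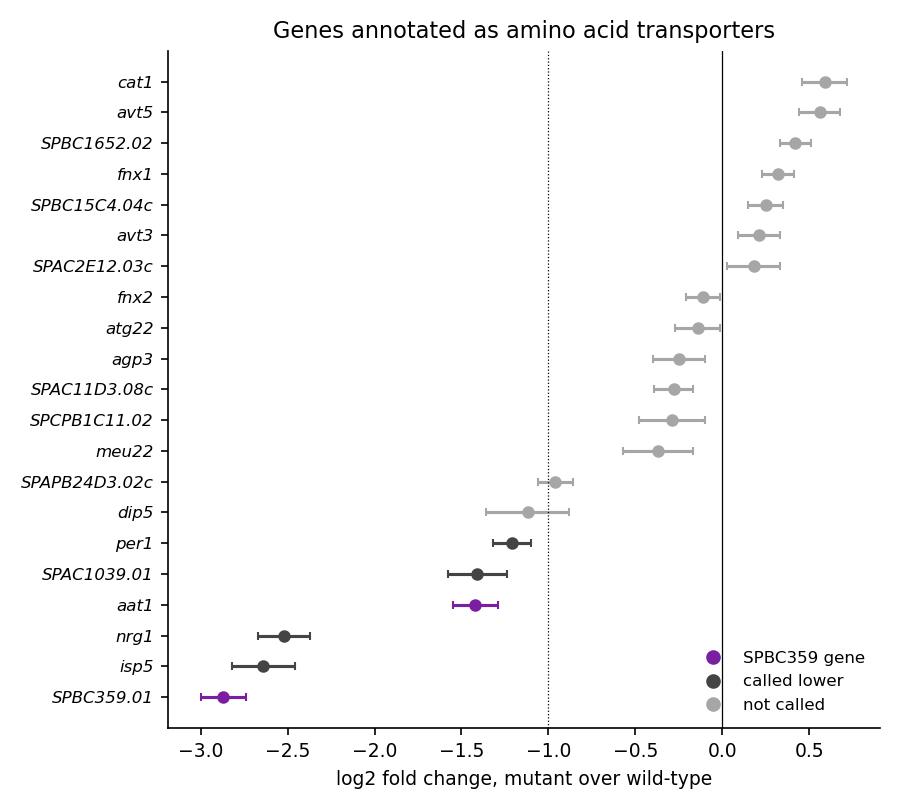
The log2 fold change, mutant over wild-type, of the 21 genes whose annotated product holds "amino acid" with "transporter" or "permease". Bars are 1 standard error from edgeR, and a dotted line marks a 2-fold fall. SPBC359.01 (−2.87) and *aat1* (−1.42) lie among 6 genes called lower, and the other values reach 0.59 for *cat1*.

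Relatives of *pfl7* were also examined. Of 7 other flocculin genes tested (8 in DESeq2), 0 were called lower by edgeR, DESeq2, or limma-voom, and 1, *pfl3*, was called higher (728.9 ± 69.1 normalized counts in the wild-type and 2479 ± 107.3 in the mutant, log2 fold change 1.77, adjusted p = 1.3e-06 from edgeR). Over all features tested, 1.72% were called lower and 0.37% higher. At an unadjusted p under 0.05, 1 of the 7 was lower and 3 were higher by edgeR, against 14.3% and 13.1% of all features. For *pfl9*, the closest in sequence to *pfl7*, the log2 fold change was −0.84 (adjusted p = 0.0758), and for *pfl8* it was 0.71 (adjusted p = 0.00267). Of 8 other ABC transporter genes, 0 passed the adjusted p of 0.05 by edgeR, DESeq2, or limma-voom, where 7.03% of all features were lower and 5.33% higher by edgeR. At an unadjusted p under 0.05 by edgeR, 1 of the 8 was lower and 1 higher, near the 14.3% and 13.1% of all features. Their median log2 fold change was 0.01, and *abc2* was at 0.13. Among 78 other tested genes with a *mug* name (90 in DESeq2), 1 was called lower (*mug143*, −1.08, adjusted p = 0.0034 from edgeR) and 0 higher by all 3 tools. These counts are near the 1.72% and 0.37% of all features, and the median was −0.09. By edgeR's unadjusted p, 12 of the 78 were lower and 5 higher, the first near the 14.3% of all features and the second below the 13.1%.

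*abc3* was also set beside 11 other genes of iron acquisition and its regulation. Of these, 1 was called lower, the flanking gene *frp1*, and 0 were called higher by the 3 tools. Over all features tested, 1.72% were called lower and 0.37% higher. At an unadjusted p under 0.05 by edgeR, 4 of the 11 were lower and 0 higher, beside 14.3% and 13.1% of all features. The ferroxidase gene *fio1* had 5186, 5447, and 6089 normalized counts in the wild-type and 3308, 4376, and 5418 in the mutant (log2 fold change −0.35, adjusted p = 0.164 from edgeR). Its mutant libraries stood in the same order as those of *abc3*, with replicate 1 lowest and replicate 3 highest. *frp1* had 3222, 6468, and 7577 in the mutant, and *str3*, a siderophore transporter gene, 1183, 5116, and 5815, again with replicate 1 lowest. The median log2 fold change of the 11 was −0.10. The value was 0.24 for *str1*, 0.13 for *php4*, −0.05 for *sib1*, −0.08 for *str2*, −0.10 for *fip1*, and −0.41 for *sib2*. For *fep1* itself it was −0.04 (adjusted p = 0.858). *shu1* was lower at a low level (46.4 ± 3.89 and 8.3 ± 2.52, log2 fold change −2.47, adjusted p = 0.000314), under the minimum for a call. The part of the differences among mutant libraries in the value of *abc3* was not tested beyond leaving libraries out.

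**Figure D5:**
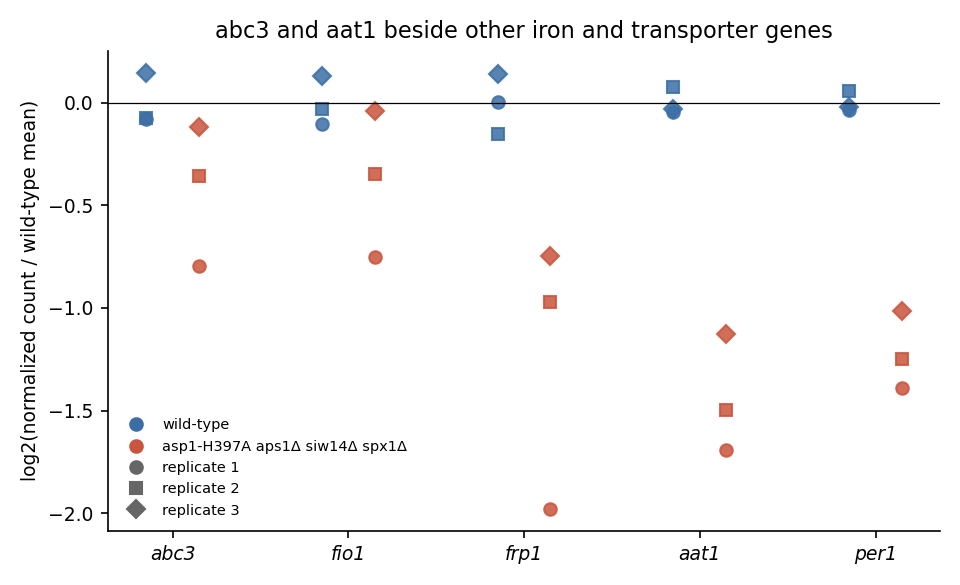
The log2 ratio of each library's normalized count to the wild-type mean for *abc3*, the iron genes *fio1* and *frp1*, and the permease genes *aat1* and *per1*. Mutant replicate 1 (circle) is the lowest and replicate 3 (diamond) the highest mutant library for all 5 genes, and the spread is widest for *frp1*, from 3222 to 7577 normalized counts.

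Likeness of pattern was measured as the Euclidean distance over the 6 libraries between profiles of log2 CPM, each centred on its own mean. It is a description, dominated by the size of the strain difference. The nearest features to *abc3* were *fio1* (distance 0.09), the carboxylic acid transporter gene SPAC11D3.18c (0.21), and SPNCRNA.1455 (0.26). For SPBC359.01 they were the arginase gene *car1* (0.30), *isp5* (0.41), and the noncoding gene *omt3* (0.52). For *aat1* they were SPNCRNA.1026 (0.26) and the permease genes *per1* (0.30) and SPAC1039.01 (0.31), and for *pfl7* the transcription factor gene *ste11* (0.21), SPCC737.04 (0.28), and SPAC1399.06 (0.35). *mug14* was nearest to the agmatinase gene SPAPB24D3.03 (0.33), SPAC11D3.06 (0.37), and *mei2* (0.39). *alr2* had no near match, its closest being SPNCRNA.577 (0.81), SPNCRNA.935 (0.85), and *mfm1* (1.13). Among the 6 genes the closest pair was *aat1* and *pfl7* (0.50), and the most distant was *alr2* and *abc3* (4.81).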

How the data were processed

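The 6 RNA-seq libraries were grouped and numbered by their labels. The deposited counts were whole numbers for each gene, made by the authors without normalization from paired reads of 51 bases that HISAT2 (version 2.1.0) placed on ASM294v2, passed through SAMtools, and tallied over exons by HTSeq (version 0.10.0). The authors also deposited a DESeq2 comparison, in which they computed log2 fold changes with standard errors, a score-like test statistic, and p-values, none of which was used here. Its average normalized values, a signal of counts divided by size factors, are printed as the authors' averages. They also entered an added alternative, in which the minimum mean count was read on them.

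The quasi-likelihood test of edgeR (version 4.0.16, in R version 4.3.3) was run after filterByExpr and TMM scaling, with p-values adjusted by Benjamini-Hochberg over the 5947 features kept and with the cutoffs of the study's methods. Standard errors were taken as the size of the log2 fold change over the root of the F statistic. Replicate libraries differed beyond sampling noise (chi-square per degree of freedom 5.91 to 65.8) and each was kept.

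Of 6988 features, 6836 were paired by ID with the RefSeq ASM294v3 annotation, used for names, products, order, and exon lengths. The builds differ, so no coordinates or sequences are printed. Related genes were found with blastn version 2.17.0. The motif search planned for promoters was not run for the same reason.

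The 6 genes, the lists, and the tests were chosen with earlier results of these data known. Lists were drawn from annotated products or symbols, "amino-acid" read as "amino acid". Named genes were the 6, flanking genes called and the nearest on each side, up to 4 called genes of each list, every gene of alanine and D-amino acid metabolism, and for each of the 6 the 3 nearest profiles (log2 CPM with a prior count of 0.5). The uncalled flanking genes further out, the noncoding genes, the mating-type and sporulation markers, *cat1*, *avt5*, *fnx1*, SPBC1652.02, *dip5*, SPAPB24D3.02c, *put4*, *pfl8*, *pfl9*, and *abc2* were named after their values were seen. So were the iron genes other than *fio1* and *frp1*. Alternatives were RLE size factors, library totals, 2 other low-count filters, DESeq2 version 1.42.0, limma-voom (limma version 3.58.1), the replicate number as a block, no minimum mean count, and each library left out.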

Additional observations from a re-analysis of the deposited data

Results flagged for a closer look

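The authors' table of averages holds a value for *mug14* that stands far from its level in these libraries. Its baseMean is 6589, against the authors' averages of 86.72 in wild-type and 19.08 in mutant cells, a ratio of 76 to the higher average. By that ratio it is at rank 4 of 5319 features with an average of at least 50. For the 5 other genes, which are at rank 5226 to 5317, the baseMean is below the wild-type average, at 0.265 times it for *alr2*, 0.294 for SPBC359.01, 0.394 for *aat1*, 0.458 for *abc3*, and 0.484 for *pfl7*. A baseMean is a mean over every library of a DESeq2 fit. Over these 6 libraries alone, and on the scale of the averages, it would lie between the averages of the strains. That of *mug14* lies above both averages, and that of *abc3* below both (1530 against 3342 and 2513). The sources used here do not say which libraries were in that fit, and no value of the report uses this column.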

How the results depend on the processing

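The log2 fold changes of the 6 genes kept their sign and moved by less than the spread between replicates under every alternative run. Leaving out 1 library at a time gave −2.98 to −2.78 for SPBC359.01, −4.47 to −4.07 for *alr2*, −1.59 to −1.30 for *aat1*, −1.75 to −1.55 for *pfl7*, −0.56 to −0.23 for *abc3*, and −2.23 to −2.12 for *mug14*. The same 5 genes were called in each of these fits, and 4 of them, without *mug14*, when the minimum count was read on the authors' averages, an alternative added after seeing the data. Over all features, leaving out a library gave 18 to 27 called higher and 100 to 115 lower, and with no minimum mean count 35 were higher and 179 lower, against 22 and 102. Flanking genes called lower were 6 to 8 when a library was left out, against 7 in the main fit. Of the 21 listed amino acid transporter genes, SPBC359.01 and *aat1* included, 6 to 7 were called lower, against 6 in the main fit. Same-numbered libraries did not deviate together (correlations −0.034, −0.031, and −0.054). These correlations cannot show whether same-numbered cultures were grown or prepared together. With the replicate block 22 features were called higher and 101 lower, and the log2 fold change of *alr2* was −4.25. At 21 to 27 counts in the mutant libraries, *mug14* is limited by depth more than the other 5 genes.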

Other observations

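Some of the genes nearest in profile to the 6 genes, or called in the same lists, share a systematic ID stem with each other, which in fission yeast marks genes of 1 stretch of chromosome. These stems were chosen after the values were seen, and no test was run. Of the 11 protein-coding genes with IDs starting SPAC1039, where *isp5*, SPAC1039.01, and SPAC1039.06 lie, 3 were called lower (*isp5*, SPAC1039.01, and *mmf2*) and 0 higher by edgeR, with 0 higher at an unadjusted p under 0.05. The median log2 fold change was −0.88. Of 18 genes starting SPAC11D3, which include SPAC11D3.06 and SPAC11D3.18c, 3 were called lower and 0 higher, 2 being higher at an unadjusted p under 0.05, and the median was −0.28. Of 9 starting SPAPB24D3, only the agmatinase gene SPAPB24D3.03 was called, and the median was 0.03. The permease gene SPAPB24D3.02c was at −0.96 and was called lower without wild-type replicate 1 (−1.03) or without mutant replicate 3 (−1.02). Over all 5947 features, 1.72% were called lower and 0.37% higher, and 13.1% were higher at an unadjusted p under 0.05 by edgeR.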
